A study of Rattus norvegicus with 3 samples.

Results

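The platelet-derived growth factor (PDGF) family was examined through its 4 ligand genes, Pdgfa, Pdgfb, Pdgfc and Pdgfd, and its 2 receptor genes, Pdgfra and Pdgfrb, which are 6 of the 17337 genes listed in the deposited table. The members were taken by name, and each matched 1 row. RNA was sequenced in 3 libraries of untreated Schwann cell precursors, the early glia of peripheral nerve, which were cultured as primary cells from dorsal root ganglia of wild-type embryonic rats in a Sato-type medium. The 3 libraries form 1 group, and what follows are levels within these cultures, with no comparison between conditions. Nothing in the labels ties the libraries to separate cultures or animals, so the spread and the p-values describe these libraries and may be technical. The labels name no sorting step.

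PDGF ligands are secreted as pairs of chains and bring together pairs of receptor tyrosine kinases on the cell surface. PDGF-A chains act through the alpha receptor, PDGF-B chains bind both receptors, PDGF-C acts mainly through the alpha receptor and PDGF-D mainly through the beta receptor. In the nervous system the alpha receptor is best known from oligodendrocyte precursors and from fibroblasts, and the beta receptor from pericytes and other mural cells. Cultured rat Schwann cells are known to divide in response to PDGF-B dimers, and PDGF-B has been described as part of the autocrine support of rat Schwann cells.

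Pdgfra was the most abundant member, followed by Pdgfrb and Pdgfa, while Pdgfc, Pdgfd and Pdgfb were low. Levels are given in TPM, counts per base of gene length scaled to 1000000 in each library, as mean ± SD over the libraries (n = 3). The mean was 267 ± 1.71 TPM for Pdgfra, 173 ± 3.23 for Pdgfrb and 102 ± 2.07 for Pdgfa. It was 6.31 ± 0.844 TPM for Pdgfc, 3.30 ± 0.600 for Pdgfd and 3.15 ± 0.868 for Pdgfb. The libraries held 15309526, 14139074 and 14162738 counts. In a gene of median length a count of 3 corresponds to 0.216 to 0.232 TPM in them.

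In the files' build, rn6, Pdgfra (NCBI gene 25267) lies on the minus strand at chr14:35527926-35581031 with 23 listed exons, and Pdgfrb (24629) on the plus strand at chr18:56364677-56406381, also with 23. Pdgfa (25266) has 8 listed exons on the plus strand at chr12:17734141-17755240, and Pdgfb (24628) has 7 on the minus strand at chr7:121215458-121233092. Pdgfc (79429) has 6 on the plus strand at chr2:179952227-180126897, and Pdgfd (66018) has 7 on the plus strand at chr8:4441010-4666754. Each member is listed at 1 place, and 0 other genes in the table overlap the exons of any of the 6. Listed lengths, which set the TPM, were 6515 bases for Pdgfra and 5370 for Pdgfrb. Among the ligands they were 1308 bases for Pdgfa, 1706 for Pdgfb, 1116 for Pdgfc and 1327 for Pdgfd, where Pdgfb, Pdgfc and Pdgfd rest on 1 listed transcript each.

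Promoter windows from RefSeq (build GRCr8), covering 250 bases before to 50 after the annotated start, were found for 5 of the 6 members. Those of the most abundant receptor, of the most abundant ligand and of Pdgfb, a low ligand, are shown, since these mark high and low levels within the family. Capitals mark matches, on either strand, to the GC box GGGCGG, the TATA box TATAAA, the CCAAT box CCAAT and the SOX core ACAAAG. The windows are chr14:33408467-33408766 (minus strand) for Pdgfra, chr12:20759116-20759415 (plus strand) for Pdgfa and chr7:113438294-113438593 (minus strand) for Pdgfb.
Pdgfra: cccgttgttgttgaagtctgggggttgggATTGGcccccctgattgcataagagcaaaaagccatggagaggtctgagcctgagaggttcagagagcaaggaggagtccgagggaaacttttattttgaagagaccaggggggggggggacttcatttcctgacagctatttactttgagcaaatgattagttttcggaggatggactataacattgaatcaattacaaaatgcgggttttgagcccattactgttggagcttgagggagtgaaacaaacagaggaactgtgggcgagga
Pdgfa: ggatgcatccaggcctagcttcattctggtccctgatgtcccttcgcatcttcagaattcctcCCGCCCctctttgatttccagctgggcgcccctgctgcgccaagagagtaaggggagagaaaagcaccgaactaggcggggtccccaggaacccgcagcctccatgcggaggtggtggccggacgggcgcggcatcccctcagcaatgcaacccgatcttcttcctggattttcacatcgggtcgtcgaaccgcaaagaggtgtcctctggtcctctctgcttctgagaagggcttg
Pdgfb: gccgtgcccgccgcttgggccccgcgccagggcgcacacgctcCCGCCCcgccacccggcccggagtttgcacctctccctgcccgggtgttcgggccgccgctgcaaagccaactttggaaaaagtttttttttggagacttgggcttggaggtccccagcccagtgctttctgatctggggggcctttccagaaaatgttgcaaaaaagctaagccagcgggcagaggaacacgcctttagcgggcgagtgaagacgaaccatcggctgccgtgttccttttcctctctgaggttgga
The Pdgfra window held 1 CCAAT box, a motif in 37.49% of 33469 promoter windows of the same length, and no other motif searched. The windows of Pdgfa and Pdgfb each held 1 GC box, as 33.06% of all windows did, and so did that of Pdgfd. No searched motif was found in the Pdgfc window. Its bases after the annotated start begin with ATG, so that this window may lie within the transcript and miss the promoter. None of the 5 windows held TATAAA (14.22% of all) or ACAAAG (18.78% of all). The GC content was 48% for Pdgfra, 60% for Pdgfa and 62% for Pdgfb, beside a median of 51.67% over all windows. The count of CG dinucleotides was 5 for Pdgfra, 17 for Pdgfa and 22 for Pdgfb, beside a median of 7. The windows of Pdgfa and Pdgfb thus both lay above these medians, and that of Pdgfra below them. Any link of composition or motifs to the transcript levels was not tested.

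Of the receptors, Pdgfra, which encodes the alpha receptor, was at 268.5, 267.5 and 265.2 TPM in replicates 1, 2 and 3, from 12927, 11985 and 11893 counts. The 3 values lie close together, with a ratio of highest to lowest of 1.013. Pdgfra ranked 665th of 17337 genes by mean TPM and exceeded 95.02% of the 13345 genes that had a count. Pdgfrb, which encodes the beta receptor, was at 176.4, 171.7 and 170.2 TPM, from 6999, 6342 and 6291 counts. It ranked 1176th, above 91.2% of genes with a count, and its highest library was 1.036 times its lowest.

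The alpha receptor transcript was more abundant than the beta receptor transcript in 3 of 3 libraries, and the values of the 2 genes did not overlap. By the same fit 8.42% of all genes tested were higher than Pdgfrb. The log2 ratio of Pdgfra over Pdgfrb was 0.63 ± 0.02 (SE), a 1.55-fold difference, with an adjusted p of 4.08e-09 by limma, fitted over all genes with 0.1 TPM added and Benjamini-Hochberg adjusted. Pdgfra made up 60.4%, 60.9% and 60.9% of the summed receptor TPM, and Pdgfrb 39.6%, 39.1% and 39.1%. The alpha receptor was thus the larger part of the receptor transcripts, but both receptors were abundant. An exact sign-flip permutation test over 3 libraries cannot go below p = 0.25, which it gave for each pair of members with 1 direction in all libraries.

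Of the ligands, Pdgfa, which encodes the A chain, was at 104.2, 103.1 and 100.2 TPM, from 1007, 927 and 902 counts. It ranked 2054th, above 84.6% of genes with a count. Pdgfa lay below both receptors in each library. The log2 ratio of Pdgfra over Pdgfa was 1.38 ± 0.03 (SE, limma adjusted p = 9.34e-12). That of Pdgfrb over Pdgfa was 0.75 ± 0.03 (SE, limma adjusted p = 2.37e-10).

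Pdgfb, which encodes the B chain, was at 2.38, 4.09 and 2.98 TPM, from 30, 48 and 35 counts. The exact Poisson 95% intervals of these values, which cover counting error only, were 1.61 to 3.40, 3.02 to 5.42 and 2.08 to 4.15 TPM. Replicate 2 was the highest and replicate 1 the lowest, with intervals that overlap, and the ratio of highest to lowest was 1.72, the widest of the 6 members. Pdgfc, which encodes a chain that is secreted latent and cut free by proteases, was at 6.31, 5.47 and 7.16 TPM, from 52, 42 and 55 counts. Pdgfd, which encodes the other latent chain, was at 3.77, 3.51 and 2.63 TPM, from 37, 32 and 24 counts.

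**Figure D1:**
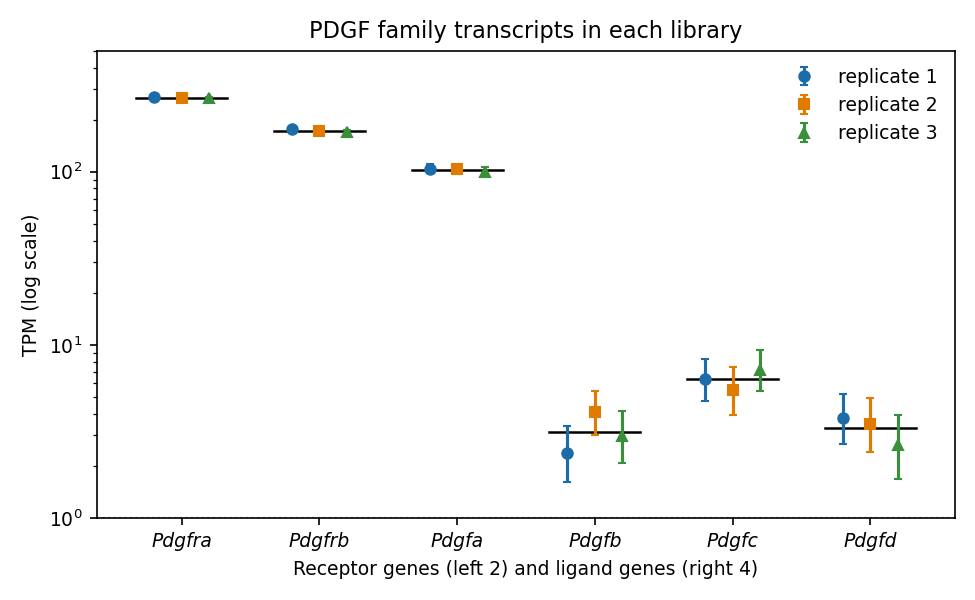
TPM of the 6 PDGF family genes on a log axis, with 1 point per library, exact Poisson 95% intervals as bars and the mean of 3 libraries as a horizontal line. The receptors and Pdgfa lie at 100.2 to 268.5 TPM with narrow intervals, and Pdgfb, Pdgfc and Pdgfd lie at 2.38 to 7.16 TPM with wide ones.

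All 6 members were above 1 TPM by limma on log2(TPM + 1), beside 78.4% of the 13345 genes tested (17.8% were below), so that this count does not set the family apart. The adjusted p was 4.49e-14 for Pdgfra, 9.28e-14 for Pdgfrb, 2.49e-13 for Pdgfa, 3.22e-07 for Pdgfc, 1.83e-05 for Pdgfd and 8.55e-05 for Pdgfb. Within the range of all genes the members fell into a high set and a low set. Pdgfc, Pdgfd and Pdgfb exceeded 32.2%, 26.8% and 26.5% of the genes with a count, whose median was 21.7 TPM.

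**Figure D2:**
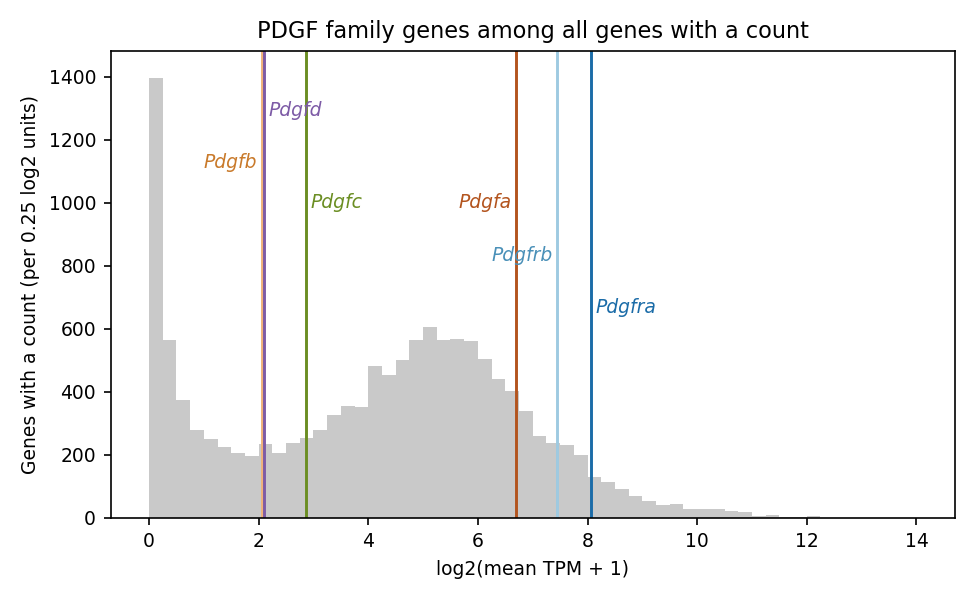
Histogram of log2(mean TPM + 1) over the 13345 genes with a count, with a vertical line at each PDGF family gene. Pdgfa, Pdgfrb and Pdgfra stand on the upper shoulder, above 84.6%, 91.2% and 95.02% of genes, and Pdgfb, Pdgfd and Pdgfc stand left of the main peak.

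The A chain dominated the ligand transcripts. Pdgfa made up 89.3%, 88.7% and 88.7% of the summed ligand TPM in replicates 1, 2 and 3. Pdgfc made up 5.49 ± 0.816% (SD, n = 3), Pdgfd 2.86 ± 0.475% and Pdgfb 2.73 ± 0.746%. The sum of the 3 low ligands was 12.5, 13.1 and 12.8 TPM, a narrower range than that of any of them alone. Receptors together reached 440 ± 4.81 TPM and ligands together 115 ± 2.003 TPM, so that receptor transcripts exceeded ligand transcripts 3.82 ± 0.0363-fold.

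**Figure D3:**
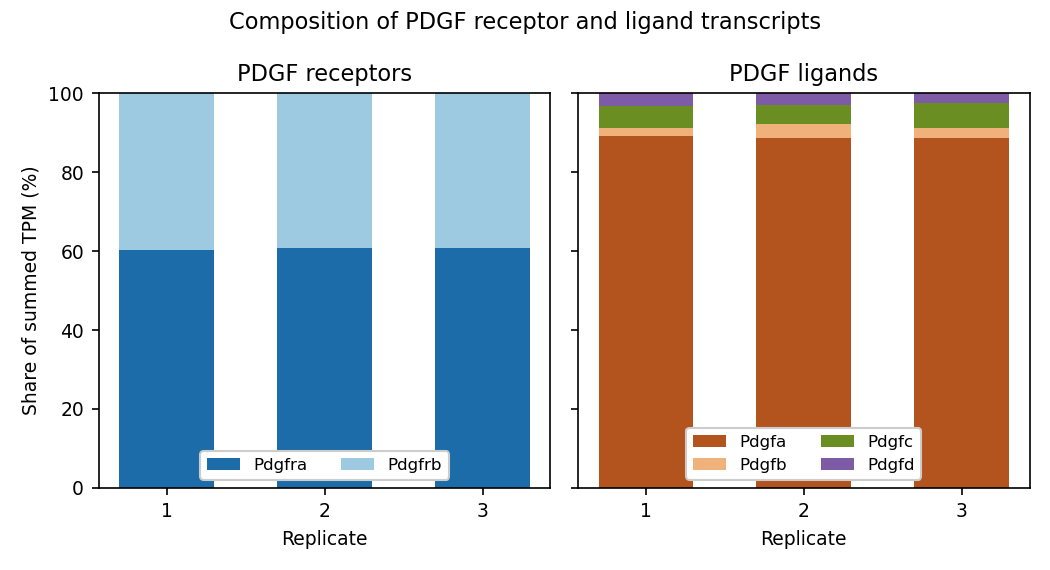
Share of the summed TPM held by each receptor gene (left) and each ligand gene (right), in percent, with 1 stacked bar per library. Pdgfra holds about 60.7% of the receptor transcripts and Pdgfa about 88.9% of the ligand transcripts, and the bars differ little between libraries.

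The order of the mean levels was Pdgfra, Pdgfrb, Pdgfa, Pdgfc, Pdgfd and Pdgfb, and its first 5 members kept that order in 3 of 3 libraries. All 15 pairs of members were compared, and 14 differed at an adjusted p under 0.05. The other members were all lower than Pdgfra, 5 of 5, beside 94.8% of all genes tested, while 4.69% were higher. The same fits placed 90.8% of genes below Pdgfrb, and 83.8% below and 14.6% above Pdgfa. They placed 30.0% of genes below and 65.6% above Pdgfc, 24.7% below and 70.7% above Pdgfd, and 23.5% below and 70.1% above Pdgfb. Pdgfa exceeded Pdgfb by a log2 ratio of 5.01 ± 0.39 (SD, n = 3), Pdgfd by 4.93 ± 0.24 and Pdgfc by 4.01 ± 0.21, which are 32.3-fold, 30.5-fold and 16.1-fold differences. Ratios to a gene with few counts share that gene's noise, and the fitted variances then had no gene-specific part, so that the smallest adjusted p-values are too small. With both genes' own moderated variances, an alternative added after the data were seen, the same 14 pairs passed, with limma adjusted p-values of 8.52e-10 to 8.01e-04.

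Among the low ligands, Pdgfb was lower than Pdgfc in 3 of 3 libraries, at a log2 ratio of -1.01 ± 0.52 (SD, n = 3). The limma adjusted p was 2.85e-07, or 8.01e-04 with both genes' own variances. Pdgfc exceeded Pdgfd in 3 of 3 libraries, by a log2 ratio of 0.92 ± 0.43 (SD, n = 3). The limma adjusted p-values in those 2 fits were 1.65e-05 and 6.76e-04. Pdgfb and Pdgfd, the neighbours at the low end, did not differ beyond their spread. Their log2 ratio was -0.64, 0.22 and 0.18 in replicates 1, 2 and 3, with a mean of -0.08 and a limma adjusted p of 0.725. The 95% interval with both genes' own variances ran from -0.56 to 0.39, or 0.678-fold to 1.31-fold, so that this missed threshold does not show equal levels.

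**Figure D4:**
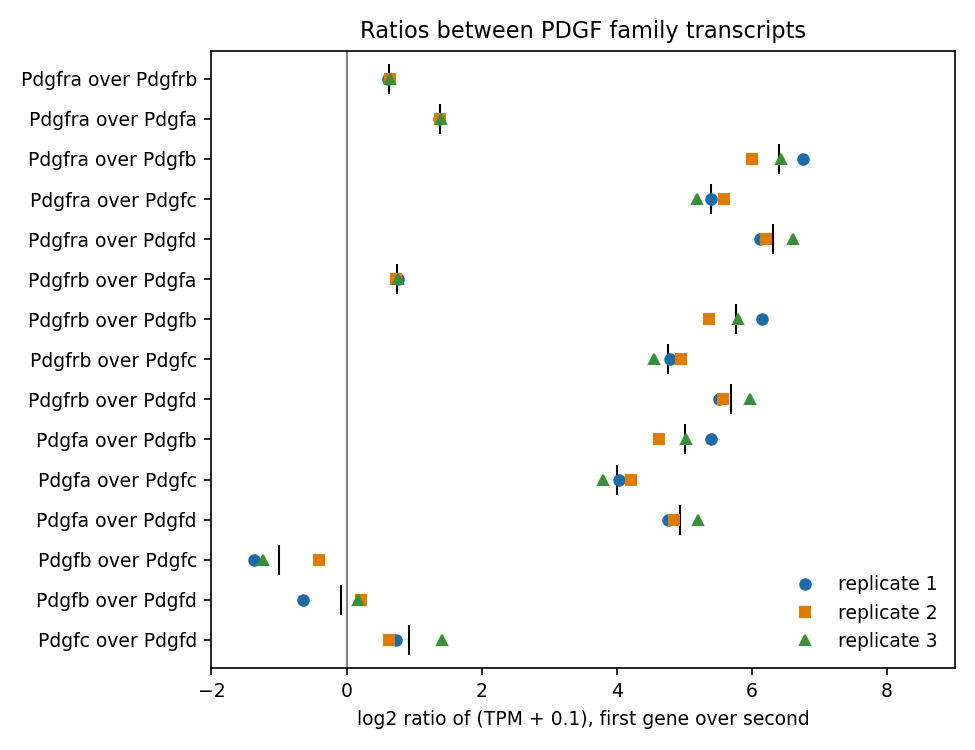
Log2 ratio of (TPM + 0.1) for the 15 pairs of PDGF family genes, with 1 point per library and the mean as a vertical tick. The ratio of Pdgfra over Pdgfrb is 0.61 to 0.64 in the libraries, whereas that of Pdgfb over Pdgfd lies on both sides of 0.

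Spread between libraries was small for the abundant members. A chi-square statistic per degree of freedom of the counts against the library totals was 0.265 for Pdgfra, 1.44 for Pdgfrb and 0.292 for Pdgfa. Under counting error alone its expected value is 1, but with 3 libraries the value of a single gene scatters widely around that and its median is lower. Its median was 1.63 over the 1520 genes with a mean of 100 to 300 TPM. It was 2.98 for Pdgfb, 0.864 for Pdgfc and 0.984 for Pdgfd, with a median of 0.891 over the 1457 genes at 2 to 8 TPM. The value of Pdgfb was thus above the median of genes of like level, and its coefficient of variation was 27.6%, beside a median of 11.2% in that range. That coefficient also grows as counts fall, and Pdgfb had only 30, 48 and 35 counts. Whether Pdgfb varied beyond counting error was not tested.

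With 1 condition, likeness to other genes is a likeness of level alone, taken as the largest absolute difference in log2(TPM + 1) over the 3 libraries. The genes nearest to Pdgfra were Xbp1, Psmb3 and Sat1, with differences of 0.02 to 0.03. Those nearest to Pdgfrb were Xpnpep1, Zcchc24 and Hp1bp3, and those nearest to Pdgfa were Oat, Ntan1 and Gnl1, with differences of at most 0.02. For the low ligands the nearest genes were farther, at up to 0.06 for Pdgfc (Sfxn4, Negr1 and Slc2a10), 0.10 for Pdgfd (Cpt1b, Mitf and Kbtbd8) and 0.13 for Pdgfb (Sdr39u1, Mctp2 and Tmem81).

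Of 10 genes that process the ligands or inhibit that step, 8 were above and 1 below 1 TPM, beside 78.4% and 17.8% of all genes tested. Serpine2 and Timp1, inhibitors of serine proteases and of metalloproteinases, were at 1071 ± 9.77 and 591 ± 9.83 TPM. Plat, the tissue plasminogen activator known to cut PDGF-C free, was at 904.7 ± 4.05 TPM, far above its substrate's transcript. Furin, a convertase that processes the A and B chains, was at 223 ± 2.83 TPM. The urokinase gene Plau, whose product can cut PDGF-D free, was at 4.81 ± 0.655 TPM. The genes under 1 TPM in each library were Pcsk6, at 0.352 ± 0.0940 TPM, and the matriptase gene St14, at 0.770 ± 0.223 (limma adjusted p = 0.0792).

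Of 11 measured genes for PDGF-binding proteins and co-receptors, all 11 were above 1 TPM, beside 78.4% of all genes tested. Sparc, a matrix glycoprotein that binds PDGF-B, was at 7338 ± 53.5 TPM and the proteoglycan gene Dcn at 842 ± 20.3. Nrp1, a co-receptor, was at 178 ± 10.9 TPM, Lrp1, an endocytic partner of the beta receptor, at 151 ± 7.48 and Ctgf at 146 ± 2.04.

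Downstream of the receptors, 24 of 25 proximal effectors and 16 of 17 measured negative regulators were above 1 TPM, beside 78.4% of all genes tested. The effectors had a median of 67.1 ± 2.25 TPM, and the negative regulators of 60.4 ± 3.16, against 21.7 over all genes with a count. The highest effectors were the kinase Fyn at 272 ± 4.99 TPM, the adaptor Grb10 at 239 ± 7.19, Stat3 at 238 ± 2.60, the adaptor Shc1 at 171 ± 1.98 and Crk at 156 ± 3.79. Pik3cb, a catalytic subunit of phosphoinositide 3-kinase, was at 1.19 ± 0.206 TPM and passed in neither direction, whereas Pik3ca was at 31.1 ± 0.987. Among negative regulators the ERK phosphatase gene Dusp6 was at 99.0 ± 1.69 TPM, Ptpn12 at 93.8 ± 2.16, Spry2 at 90.002 ± 2.54 and Socs3 at 83.5 ± 3.60. Cblc, a ubiquitin ligase gene of epithelia, had 4 counts over the 3 libraries.

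Of 16 immediate early genes that growth factors are known to induce, 15 passed as above 1 TPM, beside 78.4% of all genes tested, and the list's median was 66.0 ± 1.41 TPM. They were led by Jun at 414 ± 31.0, Fos at 155 ± 12.3, Hbegf at 114 ± 4.82, Ier3 at 109 ± 3.52 and Ier2 at 105 ± 6.46. None of these genes responds to PDGF alone. The cells are labelled untreated, but growth factors in the culture medium were not examined here, so that these need not be levels without ligand.

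Among relatives of the family, 10 of 15 genes were above and 4 below 1 TPM, beside 78.4% and 17.8% of all genes tested. Every relative with a count, 14 genes, was lower than Pdgfra, beside 94.8% of all genes. The nearest relatives by level were the ligand genes Vegfa and Vegfb, at 80.4 ± 3.90 and 62.8 ± 0.789 TPM. Kit, a receptor of the same class, was at 27.8 ± 2.39 TPM and its ligand gene Kitlg at 21.8 ± 0.964, close to Csf1 at 21.9 ± 1.49. The VEGF receptor genes Kdr, Flt1 and Flt4 were at 0.178 ± 0.105, 0.568 ± 0.0781 and 0.260 ± 0.0527 TPM, and Il34 at 0.245 ± 0.0949. Flt3 had no count, which allows up to 0.111, 0.119 and 0.119 TPM in the libraries at the limit of 3 counts. Pdgfra was thus more abundant than Kit and Csf1r, the receptors of its class in this list that had counts.

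Since the receptors are known from several cell types, markers of the cells that a ganglion culture could hold are given beside them. Of the markers of the labelled cell type 12 of 12 measured were above 1 TPM, beside 78.4% of all genes tested, with a summed level of 12177 to 12411 TPM. Among them were S100b at 2061 ± 14.9, Ednrb at 1414 ± 16.7 and Ngfr at 655 ± 20.7. Lower members were Gap43 at 58.3 ± 2.31 TPM, Tfap2a at 16.7 ± 0.633 and Fabp7 at 3.32 ± 1.31. Whether the cells were precursors or later Schwann cells was not tested. Of 14 measured fibroblast markers 13 were above 1 TPM, beside the same 78.4%, with a summed level of 8615 to 8821 TPM of which Col1a1 (3842 ± 64.6) and Col3a1 (2009 ± 34.3) made up the larger part. These and Dcn, Postn and Lum, at 602 to 842 TPM, were higher than Pdgfra, and the other 9 were lower. Of these 9, Fbln1 was at 254 ± 10.9 TPM, Thy1 at 192 ± 2.99 and Prrx1 at 109 ± 4.27, levels within the range of Pdgfra, Pdgfrb and Pdgfa. Low members were Twist2 at 12.9 ± 1.35 TPM, Dpt at 11.0 ± 0.744, Fap at 10.7 ± 0.568, Pi16 at 5.75 ± 0.134, Osr2 at 3.63 ± 0.0992 and Mfap5 at 1.38 ± 0.787. In bulk RNA, fewer cells of a type and less RNA per cell cannot be told apart, and the part of fibroblasts in the level of Pdgfra was not tested.

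Of 12 mural cell markers 11 were above 1 TPM, beside 78.4% of all genes tested, with a summed level of 1413 to 1476 TPM. That sum was carried by Mcam at 578 ± 12.4, Tagln at 466 ± 13.0 and Acta2 at 317 ± 10.9, which are not particular to mural cells. Anpep was at 31.9 ± 0.453 TPM, Abcc9 at 7.90 ± 0.5001, Des at 7.89 ± 1.29, Cspg4 at 7.49 ± 0.309 and Vtn at 2.03 ± 0.652. The more restricted pericyte markers Kcnj8, Notch3, Rgs5 and Higd1b were at 7.44 ± 1.2, 4.47 ± 0.2503, 3.26 ± 1.57 and 0.443 ± 0.273 TPM. The part of mural cells or of fibroblasts in the level of Pdgfrb, 173 TPM, was not tested.

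Of 11 measured oligodendrocyte precursor markers 6 were above and 2 below 1 TPM, beside 78.4% and 17.8% of all genes tested, and their summed level was 135 to 145 TPM. Ptprz1 and Vcan, which other cells also express, were at 73.0 ± 2.19 and 51.2 ± 2.77 TPM, and Cspg4, Sox6, Gpr17 and Bcan at 7.49 ± 0.309, 2.76 ± 0.260, 2.28 ± 0.511 and 1.71 ± 0.619. Olig1 was at 0.834 ± 0.204 TPM, not called in either direction (limma adjusted p = 0.165). Olig2 was at 0.0901 ± 0.0644 TPM and Pcdh15 at 0.123 ± 0.0646. Nkx2-2 and Neu4 had no count, which allows up to 0.313 and 0.0857 TPM. The part of such cells in the level of Pdgfra was not tested.

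Endothelial and platelet-lineage cells are known sources of PDGF-B. Of 10 endothelial markers 5 were above 1 TPM, beside 78.4% of all genes tested, with a summed level of 91.8 to 97.4 TPM led by Ramp2 at 48.3 ± 4.28, Cdh5 at 16.6 ± 1.03, Emcn at 13.7 ± 0.836, Eng at 10.8 ± 0.892 and Tek at 4.69 ± 0.210. Esam, Vwf, Tie1 and Pecam1 were at 0.0694 to 0.339 TPM, and Cldn5 had no count. Of 9 measured macrophage and platelet-lineage markers 5 were above 1 TPM, beside the same share, with a summed level of 30.1 to 36.6 TPM. Lyz2 was at 9.85 ± 0.462 TPM, Tyrobp at 8.35 ± 1.32, Pf4 at 5.62 ± 1.13, Cd68 at 5.10 ± 1.499, Csf1r at 2.31 ± 0.204 and Ptprc at 0.316 ± 0.0756, while Ppbp and Cd163 had no count. The part of these cells in the low level of Pdgfb was not tested. All 9 measured sensory neuron markers were above 1 TPM, again beside 78.4% of all genes, with a summed level of 758 to 781 TPM, led by Tubb3, Prph, Nefl, Nefm and Stmn2 at 124 to 185 TPM.

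**Figure D5:**
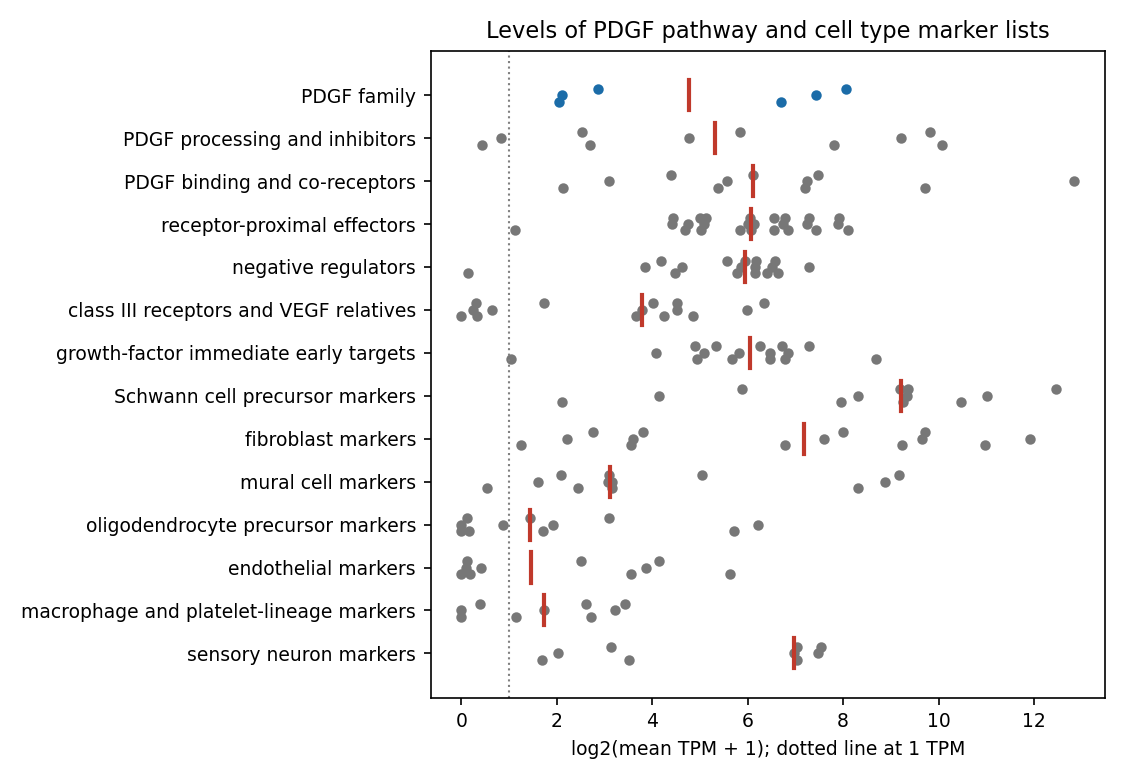
Mean level, as log2(mean TPM + 1), of each measured gene of the PDGF family (top) and of 13 lists of pathway genes and cell type markers, with a red line at the median of each list. The PDGF family splits into 3 genes near those of the abundant effectors and 3 low genes, and the precursor and fibroblast marker lists have the highest medians of the marker lists.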

How the data were processed

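RNA of the 3 libraries (500 ng input) was made into poly(A)-selected, stranded libraries, per the labels' protocols. The deposited table gives raw counts per gene, gene lengths, counts over length (a signal, not used further) and TPM, per the file headers. The submitters' processing notes name STAR 2.5.2b, Subread and rn6. The annotation, the strand setting and the treatment of multiply matching reads were not given in the sources used here. TPM was recomputed from the deposited counts and lengths, within 0.001 of the deposited TPM, and 2 rows that name no gene were dropped.

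The members and lists were chosen with earlier results of these data known. Of 181 list symbols 173 were matched, 3 by gene identifier, and 8 were not analysed here. Levels of the 13345 genes with a count were tested against 1 TPM with limma 3.58.1 (R 4.3.3) on log2(TPM + 1), with trend, two-sided. Ratios were tested per member over all genes on log2(TPM + 0.1). edgeR 4.0.16 gave TMM factors. Both kinds of limma fit were first tested on simulated counts. The simulated reference genes of the ratio fits were set well above the levels of Pdgfb, Pdgfc and Pdgfd. Ratios to genes with so few counts were thus not covered by that simulation. Named genes are the members, up to 5 top genes per list, genes under 1 TPM in every library and the 3 nearest in level; a few others were chosen after their values were seen, and a few genes under this rule are not reported here. The alternatives tried were other pseudocounts, filters, a level of 2 TPM, TMM scaling, shorter lengths, raw counts, no variance trend and leaving out each library.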

Additional observations from a re-analysis of the deposited data

How the results depend on the processing

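All 6 members stayed above the level tested, 1 or 2 TPM, under each pseudocount, filter, TMM and leave-one-out alternative, and 14 of the 15 pairs kept their direction and passed under each alternative run. The exception was Pdgfb over Pdgfd, whose log2 ratio was 0.20 without replicate 1 and ran from -0.23 to 0.20 over the libraries left out; it never passed. With raw counts, which favour long genes, Pdgfra held 65.2% and Pdgfrb 34.8% of the receptors, and Pdgfb 3.56% of the ligands. The number of genes below 1 TPM was 6235 with no filter and 1372 where a mean of 0.1 TPM or more was asked for, since other numbers of near-silent genes are then tested. With a chi-square per degree of freedom above the median of the 10436 genes with a mean count of 20 or more were 2 members, or 1 with TMM library sizes, where Pdgfrb was at 0.941. With 200 bases taken off each length, Pdgfra was at 226 TPM and Pdgfa at 99.0. Counts of 93 to 149 over the libraries limit Pdgfb, Pdgfc and Pdgfd. No paired analysis was possible because the labels give 1 group.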
